A study of Mus musculus with 37 samples.

Results

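The samples described here were the 3 ureter cancers with the lowest uroplakin score, defined below, among 11 cancers of the upper urinary tract. All were sequenced from BALB/c mice within a whole transcriptome sequencing (WTS) series of 37 libraries. The 3 cancers, UT 2, UT 4 and UT 10, were selected on measured values. For each cancer the log2(CPM + 4) of Upk1a, Upk1b, Upk2, Upk3a and Upk3b was averaged into a uroplakin score, where CPM is the estimated count of a gene per 1000000 counts of its library, and the 3 lowest scores were set against the other 8. All mice were wild-type female BALB/c. 10 of them received BBN, the nitrosamine N-butyl-N-(4-hydroxybutyl)nitrosamine, a carcinogen of the urinary tract, in their drinking water for 18 weeks. The side of the upper urinary tract with cancer is called UT (n = 11 libraries from 10 mice), and the side of the same animals without cancer is called UN (n = 7). Ureters of mice that received no BBN are called U (n = 6, both sides of 3 mice), and bladders came from the BBN-treated mice (n = 10) and from the untreated mice (n = 3). UT 2 and UT 10 were right ureters and UT 4 was a left ureter, each from a different mouse, whereas UT 5R and UT 5L among the other 8 were both ureters of mouse 5. The tissue was sequenced in bulk, so fewer cells of a type and less RNA per cell cannot be told apart in any result below.

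Uroplakins are membrane proteins of umbrella cells, the superficial layer that faces the urine. Upk1a and Upk1b are tetraspanins that pair with Upk2 and with Upk3a or Upk3b, and the pairs assemble into plaques that make the surface impermeable. Beneath the umbrella cells lie intermediate cells and a basal layer that carries the keratins Krt5 and Krt14 and the transcription factor Trp63, and urothelial cancers are commonly described along this axis from luminal to basal and squamous.

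The uroplakin score was 3.19 in UT 2, 4.52 in UT 4 and 4.85 in UT 10 (mean 4.19 ± 0.878, SD, n = 3). Among the other 8 it ran from 5.19 in UT 9 through 5.78 in UT 5L and 5.83 in UT 8 to 7.30 in UT 6 (mean 6.29 ± 0.659, SD, n = 8). UT 10, just inside the limit, and UT 9, just outside it, lay closer to each other than UT 2 lay to UT 4, so the limit did not fall in a gap of the series. Untreated U lay between 7.15 and 8.06, above each of the 3 uroplakin-low cancers and above all of the other 8 except UT 6. The UN of mouse 2, on the opposite side of UT 2, scored 2.49 and was the single library of the series below UT 2.

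**Figure D1:**
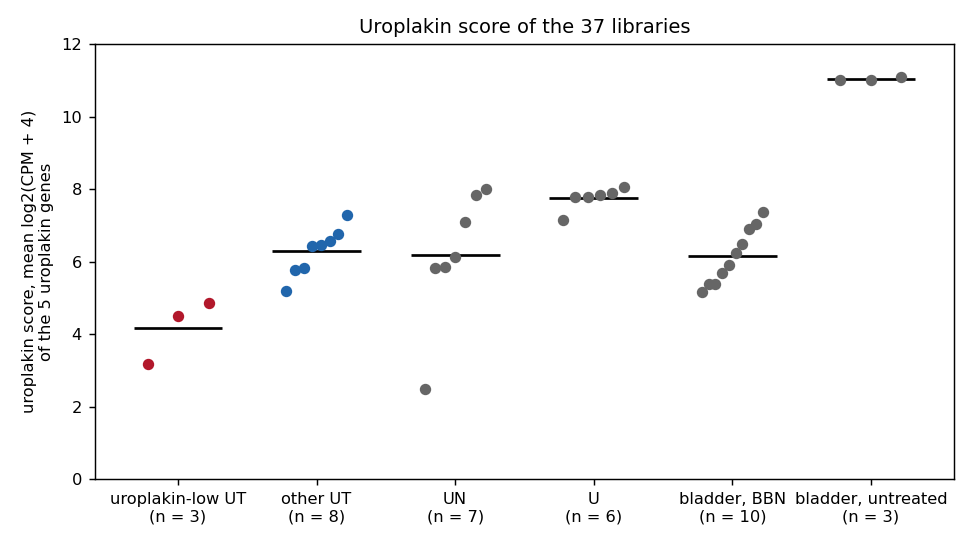
Uroplakin score, the mean log2(CPM + 4) of 5 uroplakin genes, of each of the 37 libraries by group. Each point is a library and each line a group mean. Red points are the 3 uroplakin-low cancers at 3.19 to 4.85, blue points the other 8 UT at 5.19 to 7.30, and the untreated bladders are the highest, up to 11.09.

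The 5 genes of the score are given as a description, since they chose the members. Upk1a (chromosome 7, 30603092 to 30612847, minus strand, GRCm38) was at 0.648 CPM in UT 2, 3.77 in UT 4 and 2.71 in UT 10, against 9.01 to 62.8 CPM in the other 8 with a median of 16.2. Upk2 (chromosome 9, 44452715 to 44454976, minus strand) was at 0.720, 8.18 and 3.24 CPM in the same order, against 14.4 to 105 with a median of 27.0. Neither gene overlapped between the 3 and the 8. Upk3b (chromosome 5, 136038496 to 136046487, plus strand) had no count in UT 2, which allows up to 0.216 CPM at the 3-count limit, was at 6.51 CPM in UT 4 and 2.12 in UT 10, and ran from 6.83 to 50.6 CPM in the others. Upk3a (chromosome 15, 85017141 to 85022547, plus strand) was at 5.76 CPM in UT 2, 46.2 in UT 4 and 268 in UT 10, against 136 to 1563 CPM with a median of 520. Upk1b (chromosome 16, 38773184 to 38800328, minus strand) was at 69.8, 121 and 242 CPM, against 118 to 741 CPM with a median of 453. The last 2 of these, Upk3a and Upk1b, overlapped between the sets. UT 10 was thus low in Upk1a, Upk2 and Upk3b while its Upk3a and Upk1b lay within the ranges of the other cancers. The Upk1b of UT 4 also lay within that range. In untreated U the same genes ran from 184 to 364 CPM for Upk1a, 58.7 to 120 for Upk2 and 365 to 776 for Upk3a.

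**Figure D2:**
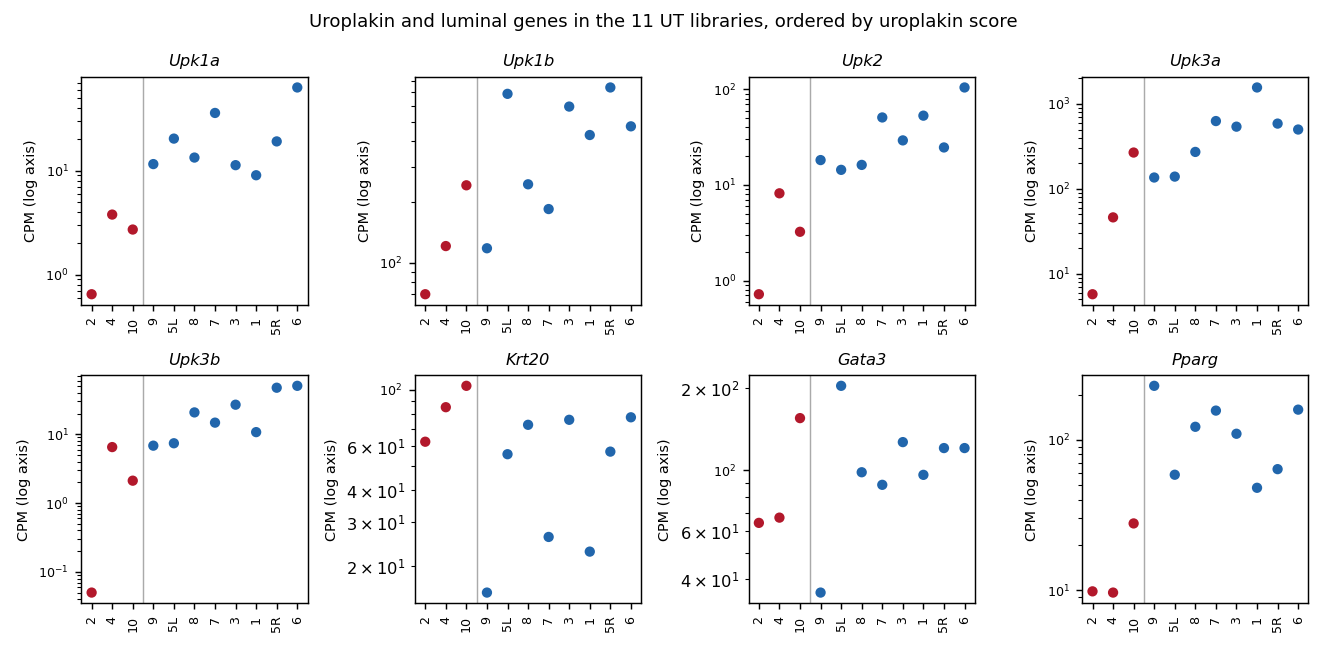
CPM on a log axis of the 5 uroplakin genes and of Krt20, Gata3 and Pparg in the 11 UT, ordered by uroplakin score, with the grey line between the 3 uroplakin-low cancers (red) and the other 8 (blue); a value of 0 is drawn at 0.05 CPM. Upk1a, Upk2, Upk3b and Pparg do not overlap between the colours, whereas Krt20 and Gata3 do.

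One window is shown here because Upk3a had the largest difference of the 5 genes. These are the 250 bases before the RefSeq start of Upk3a (chr15:85016891-85017140, plus strand, GRCm38.p6), printed 5′ to 3′ with AGATAA, the letters bound by GATA factors such as Gata3, in capitals on either strand.
Upk3a: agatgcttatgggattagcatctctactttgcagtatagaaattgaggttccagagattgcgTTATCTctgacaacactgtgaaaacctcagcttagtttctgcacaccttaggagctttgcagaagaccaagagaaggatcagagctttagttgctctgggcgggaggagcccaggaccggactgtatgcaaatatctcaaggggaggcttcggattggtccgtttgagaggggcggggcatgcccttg
Windows were at hand for 3 of the 5 uroplakin genes, and 1 of these 3 held AGATAA. Of all 27025 windows of that length 10.3% held it.

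The label was checked against epithelial markers. Epcam, an adhesion molecule of epithelial cells, was at 935 CPM in UT 2, 439 in UT 4 and 751 in UT 10, against 112 to 771 CPM in the other 8 and 18.0 to 39.0 CPM in U. Cdh1, the epithelial cadherin, was at 1007, 582 and 1317 CPM, against 98.4 to 1229 CPM. Epithelial markers were therefore present in the 3 cancers at or above the levels of most others. Of 18 general epithelial genes 17 had a higher mean in the uroplakin-low cancers, with a median difference of 0.86 on the log2(CPM + 4) scale. Of these genes only Jup, the junction plakoglobin, was above all the other 8 in each of the 3 by at least 2-fold in the mean, and the median was 0.008 with UT 9 counted among the members. Without UT 4 the count was 7, without UT 5L 3, with TMM or RLE scaling or mouse 5 averaged 2, and with the 2 or the 4 lowest libraries as members 0. Their list score, the mean log2(CPM + 4) over the list, was 7.36 in UT 2, 7.09 in UT 4 and 7.45 in UT 10, within or at the top of the range of 4.93 to 7.45 in the others. Set against that score, the uroplakin score was lower by 4.18 in UT 2, 2.57 in UT 4 and 2.60 in UT 10, whereas the same difference ran from -1.66 to 0.97 in the other 8. It contains the score that chose the members, so its separation of the sets is largely built in and does not support the label. For the UN of mouse 2 the difference was -0.17, so its low uroplakin score came with a low epithelial score of 2.66.

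Over all genes, a gene was counted as apart where the 3 uroplakin-low cancers and the other 8 did not overlap and their mean log2(CPM + 4) differed by at least 1, among 14889 genes with a mean of at least 1 CPM. By this rule 251 genes (1.69%) were apart and higher in the uroplakin-low cancers and 374 (2.51%) were apart and lower. The median difference over all genes tested was 0.009. No test was made of these differences, because the libraries had been chosen on expression in the same samples. The counts followed the choice of members. With UT 10 moved to the others (2 lowest against 9), 104 genes were higher and 207 lower, and with UT 9 added to the members (4 lowest against 7) the counts were 7 and 40. Without UT 4 they were 616 and 884. UT 4 is the library whose kidney tubule genes are described below.

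**Figure D3:**
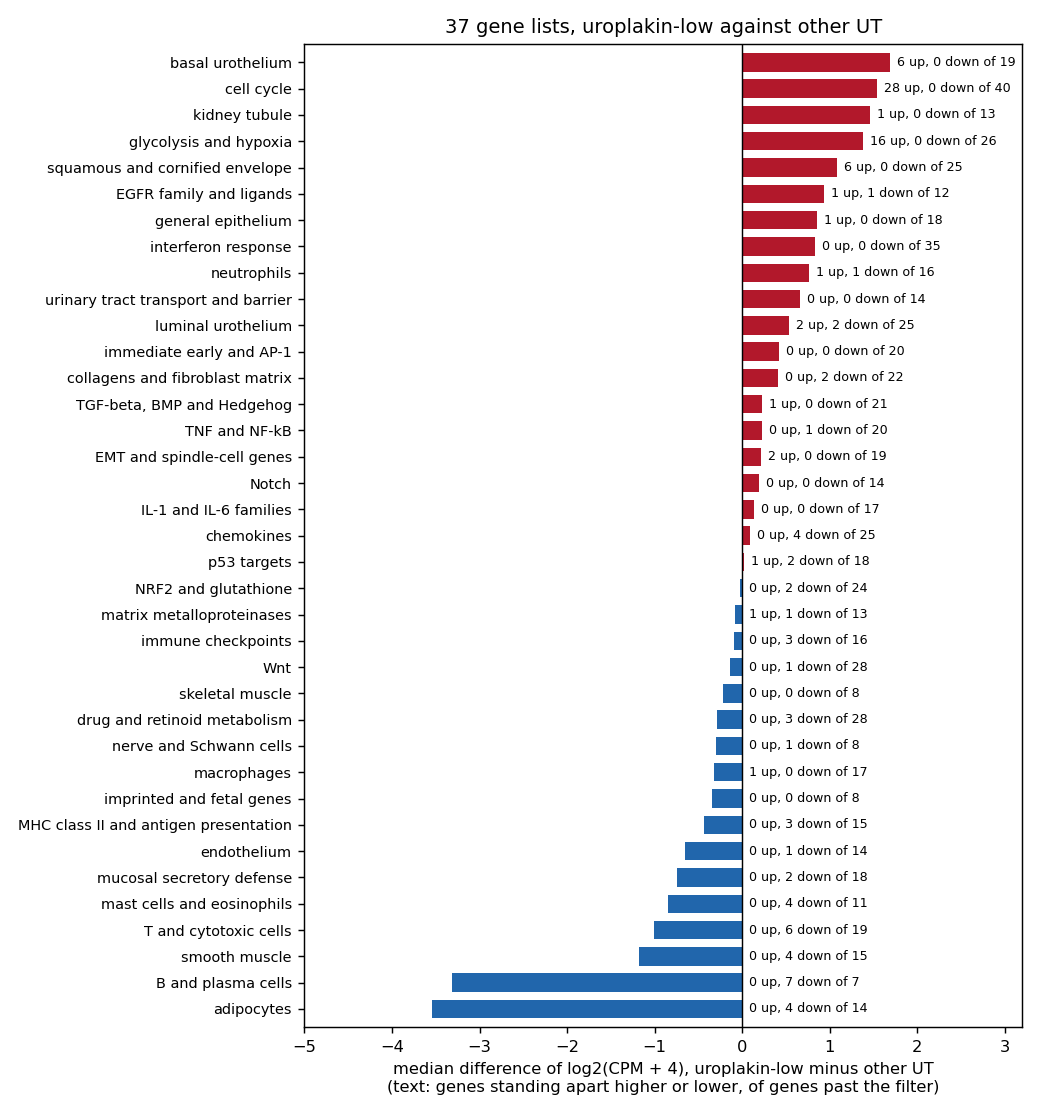
Median difference of log2(CPM + 4), uroplakin-low minus other UT, for 37 gene lists, with the number of genes apart and higher (up) or apart and lower (down) beside each bar. Basal, cell cycle and glycolysis and hypoxia genes lie at 1.69, 1.54 and 1.38, and adipocyte and B and plasma cell genes at -3.55 and -3.32.

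Luminal genes other than the uroplakins were apart in both directions. Of 25 luminal genes 2 were apart and lower (Pparg and Snx31), 2 were apart and higher (Ovol1 and Cyp2s1), and the median difference was 0.53. That median was 0.23 without UT 9, 0.29 without UT 10, 0.22 with the 2 lowest and -0.39 with the 4 lowest libraries as members. Without UT 2 or without UT 4, 4 luminal genes were apart and higher, and with the 2 or the 4 lowest libraries as members 0 were higher and 1 was lower. Krt20, the keratin of umbrella cells, was at 62.2 CPM in UT 2, 85.2 in UT 4 and 104 in UT 10, against 15.7 to 77.8 with a median of 56.2. It was thus in the upper part of the range or above it. Gata3, a transcription factor of the urothelial lineage, was at 64.3, 67.2 and 155 CPM, against 35.8 to 204. Foxa1, another such factor, was at 87.2, 41.3 and 111 CPM, against 18.1 to 180. Krt8 and Krt18, the paired keratins of simple and luminal epithelium, also overlapped between the sets, with differences of -0.43 and -0.55. Fgfr3, a growth factor receptor of luminal tumors, was at 125 and 149 CPM in UT 2 and UT 4 and at 427 in UT 10, against 28.9 to 328 in the others.

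Of the transcription factors of the luminal list Pparg was apart and lower and Ovol1 apart and higher. Pparg (chromosome 6, 115360951 to 115490399, plus strand), a nuclear receptor of both luminal urothelium and fat cells, was at 9.79 CPM in UT 2, 9.61 in UT 4 and 27.8 in UT 10, against 48.0 to 229 with a median of 116, a difference of -2.58. All 3 were below every other cancer. The list score of 14 adipocyte genes was 3.36, 3.84 and 5.49 in these libraries against 5.21 to 10.05, with UT 10 above UT 5L, and its part in the difference of Pparg was not tested. Snx31, a sorting nexin of umbrella cells that binds uroplakins, was at 0.576, 10.2 and 7.41 CPM, against 14.0 to 118. On the other side, Ovol1, a zinc finger transcription factor that promotes epithelial differentiation, was at 38.0, 57.7 and 78.8 CPM, against 5.44 to 25.9. Cyp2s1, a cytochrome P450 of epithelia, was at 139, 176 and 251 CPM, against 5.29 to 71.4.

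The genes that followed the score most closely across the 11 UT were Gstm3 (Pearson r = 0.981), Snx31 (0.972), Ebpl (0.970), Vsig2 (0.954), B4galt4 (0.930), Homer2 (0.929), Hspb8 (0.927), Gstm1 (0.921), Fer1l4 (0.920) and Gng10 (0.917). These are descriptions over 11 libraries that also differed in other ways, with adipocyte scores from 3.36 to 10.05, and no test was made. Vsig2, an immunoglobulin-domain membrane protein, had the widest difference of the 10. It was at 0.360 CPM in UT 2, 6.83 in UT 4 and 6.15 in UT 10, against 30.8 to 311 with a median of 90.4, a difference of -3.61. Gstm1, a glutathione transferase, was at 26.7 CPM in UT 2 but at 625 and 899 in UT 4 and UT 10, and the last of these exceeded the lowest of the others, 836 CPM in UT 9.

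Basal genes were higher in the uroplakin-low cancers. Of 19 basal genes 18 had a higher mean, 6 were apart and higher (Krt14, Krt17, Cdh3, Itga6, Itga3 and Dsg3), none was apart and lower, and the median difference was 1.69. Krt14 (chromosome 11, 100203162 to 100207548, minus strand), the basal keratin, was at 3834 CPM in UT 2, 2567 in UT 4 and 2946 in UT 10 (mean 3116 ± 650, SD, n = 3), against 132 to 2067 with a median of 1056 (mean 1096 ± 594.5, SD, n = 8). The difference was 1.80, or 3.47-fold on this scale. Krt14 in U was at most 8.84 CPM. Its partner Krt5 was at 2108, 1138 and 3400 CPM, against 123 to 1251, and overlapped through UT 4. Trp63, which specifies basal cells, was at 216, 120 and 405 CPM, against 27.6 to 124, and overlapped in the same way. Dsg3, a desmosomal cadherin of stratified epithelium, was at 142, 79.3 and 223 CPM, against 6.54 to 60.5. Cdh3, the cadherin of basal cells, was at 77.6, 57.0 and 84.9 CPM, against 4.04 to 34.2. The basal score was 7.80, 7.40 and 8.62, against 5.03 to 7.30. Both cadherins were thus above the range of the other 8 in each of the 3 cancers. The count of 6 became 13 without UT 4, 11 without UT 5L and 9 with the 2 ureters of mouse 5 averaged, and it was 0 with the 2 or the 4 lowest libraries as members, where the median was 0.95 and 0.55.

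Keratins of squamous and wound epithelium were higher in the uroplakin-low cancers. Of 25 genes of the squamous list 6 were apart and higher (Krt4, Krt6a, Krt6b, Krt16, Dsc2 and Serpinb2), none was apart and lower, and the median difference was 1.08. Krt6a (chromosome 15, 101689910 to 101694307, minus strand), a keratin of activated keratinocytes, was at 2030 CPM in UT 2, 672 in UT 4 and 1194 in UT 10 (mean 1298 ± 685, SD, n = 3), against 15.3 to 250 with a median of 152. The difference was 3.38, or 10.4-fold. Krt6b was at 541, 210 and 282 CPM, against 3.21 to 60.9, and since Krt6a and Krt6b are near-identical copies their counts may have been split between them. Krt16, the partner of these keratins, was at 120, 98.0 and 92.0 CPM, against 2.87 to 46.0. Serpinb2, a protease inhibitor, was at 15.4, 62.4 and 28.3 CPM, against 0.297 to 10.3. Each of these genes was higher in every uroplakin-low cancer than in any other. The squamous score as a whole overlapped, at 4.74 to 5.73 against 3.49 to 4.92, and 12 genes were apart and higher without UT 10. The mean of 3 of the 25 in the other cancers was under 1 CPM, so these passed the filter through the uroplakin-low cancers and had to be higher. With the 2 lowest libraries as members 7 were, and with the 4 lowest 0, with a median of 0.545.

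Cell cycle genes were higher as a group. All 40 genes of the list had a higher mean in the uroplakin-low cancers, 28 were apart and higher, and the median difference was 1.54. The list score was 6.34 in UT 2, 5.41 in UT 4 and 6.24 in UT 10, against 3.94 to 5.07 in the other 8, with no overlap. Mki67, the proliferation marker, was at 127, 60.1 and 127 CPM, against 13.4 to 47.6 with a median of 29.0, a difference of 1.78. Top2a (chromosome 11, 98992943 to 99024189, minus strand), the topoisomerase that untangles replicated DNA, was at 204, 83.9 and 194 CPM, against 11.1 to 55.8 with a median of 35.9, 4.59-fold on this scale. Ccnb1, the cyclin that drives entry into mitosis, was at 169, 89.0 and 133 CPM, against 7.57 to 55.3, a difference of 2.07. In each of these genes UT 4 was the lowest of the 3 and still above all the others. Rrm2, a subunit of the enzyme that makes deoxyribonucleotides, was at 273, 97.1 and 230 CPM, against 14.3 to 79.7. Bub1, a kinase of the spindle checkpoint, was at 49.8, 20.1 and 39.2 CPM, against 1.65 to 12.6. Cdc20, the activator of the anaphase-promoting complex, was at 71.7 to 135.5 CPM, against 12.4 to 58.0. Leaving out each library in turn gave 27 to 37 apart genes, whereas with the 2 or the 4 lowest libraries as members 0 were apart, and with the 4 lowest the median was 0.885.

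Since these genes moved together, the 250 bases before the RefSeq start (GRCm38.p6) were searched on both strands for CCAAT, the box read by NF-Y, and for TTTGAA, the core of the cell cycle homology region. They are shown for Top2a (chr11:99024190-99024439, minus strand) and Cdc20 (chr4:118437344-118437593, minus strand), 5′ to 3′ on the strand of the gene, with CCAAT or TTTGAA in capitals on either strand.
Top2a: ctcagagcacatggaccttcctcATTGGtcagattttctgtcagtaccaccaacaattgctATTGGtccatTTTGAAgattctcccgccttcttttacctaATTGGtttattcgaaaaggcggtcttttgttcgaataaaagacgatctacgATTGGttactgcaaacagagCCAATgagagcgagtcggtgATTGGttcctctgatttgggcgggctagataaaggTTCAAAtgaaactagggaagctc
Cdc20: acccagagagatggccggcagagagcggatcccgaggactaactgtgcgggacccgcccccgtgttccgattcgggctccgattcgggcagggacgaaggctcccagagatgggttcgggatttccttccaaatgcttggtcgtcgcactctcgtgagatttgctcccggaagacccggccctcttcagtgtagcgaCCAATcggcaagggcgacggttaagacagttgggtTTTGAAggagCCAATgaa
Of the 28 apart genes 22 had a window, and 20 of these (90.9%) held CCAAT, against 34.5% of all 27025 windows. TTTGAA was in 7 of the 22 (31.8%), against 16.3%. These shares are a property of the listed genes and were not tested. The window of Mcm7 lay wholly inside the gene as placed by GENCODE, and some other windows lay partly inside theirs.

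Glycolysis and hypoxia genes also separated the 3 cancers from every other. Of 26 genes 16 were apart and higher, 24 had a higher mean and the median difference was 1.38. The list score was 8.399 in UT 2, 8.11 in UT 4 and 8.94 in UT 10, against 6.59 to 7.16. Slc2a1 (chromosome 4, 119108711 to 119137983, plus strand), the glucose transporter GLUT1, was at 338 CPM in UT 2, 324 in UT 4 and 654 in UT 10, against 26.2 to 95.25 with a median of 60.4, a difference of 2.80. Slc16a3 (chromosome 11, 120948480 to 120960868, plus strand), the lactate exporter MCT4, was at 180, 91.7 and 240 CPM, against 5.69 to 13.6 with a median of 8.19, a difference of 3.65 or 12.6-fold. Every uroplakin-low cancer was well above the highest of the other cancers in both transporters. Ldha, which makes lactate from pyruvate, was at 4939, 2722 and 4689 CPM, against 1351 to 2511. Pgk1, a kinase of the payoff phase of glycolysis, was at 692.1 to 884.4 CPM, against 184.5 to 358.3. Car9, a carbonic anhydrase induced under low oxygen, was at 14.8 and 21.2 CPM in UT 2 and UT 4 and at 207 in UT 10, against 0.987 to 3.82. Car9 thus differed within the 3 cancers by more than Slc2a1 did.

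Further genes known to respond to hypoxia were also apart and higher, with UT 4 or UT 10 the highest of the 3. Ndrg1 was at 128 CPM in UT 2, 862 in UT 4 and 290 in UT 10, against 20.1 to 59.8. Adm, the vasodilator peptide adrenomedullin, was at 167, 211 and 630 CPM, against 29.8 to 128. Ankrd37 was at 29.0, 42.5 and 50.7 CPM, against 1.91 to 8.95. Outside the list, Ak4 (chromosome 4, 101419277 to 101466995, plus strand), an adenylate kinase of mitochondria, was among the widest differences in the whole table. It was at 76.2, 81.1 and 80.7 CPM (mean 79.3 ± 2.72, SD, n = 3), against 0.237 to 5.76 with a median of 2.19 (mean 2.37 ± 1.61, SD, n = 8), a difference of 3.75 or 13.4-fold. Ero1l, an oxidase of the endoplasmic reticulum, was at 516, 242 and 784 CPM, against 31.4 to 95.4. In untreated U, Ak4 was at 2.48 to 4.78 CPM and Slc2a1 at 17.0 to 21.2. Between 15 and 21 genes of the list were apart when each library was left out in turn, 1 with the 4 lowest as members and 0 with the 2 lowest.

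The windows of these genes were searched for ACGTG and GCGTG, the forms of the core letters bound by hypoxia-inducible factors, which can overlap each other on opposite strands. Shown are Pgam1, a glycolytic mutase (chr19:41911621-41911870, plus strand), and Adm (chr7:110627407-110627656, plus strand), 250 bases before the RefSeq start on GRCm38.p6, with ACGTG or GCGTG in capitals on either strand.
Pgam1: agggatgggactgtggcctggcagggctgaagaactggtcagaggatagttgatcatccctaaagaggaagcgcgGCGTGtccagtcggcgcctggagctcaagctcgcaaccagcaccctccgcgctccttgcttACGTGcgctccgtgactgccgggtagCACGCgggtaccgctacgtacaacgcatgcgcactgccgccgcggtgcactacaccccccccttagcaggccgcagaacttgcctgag
Adm: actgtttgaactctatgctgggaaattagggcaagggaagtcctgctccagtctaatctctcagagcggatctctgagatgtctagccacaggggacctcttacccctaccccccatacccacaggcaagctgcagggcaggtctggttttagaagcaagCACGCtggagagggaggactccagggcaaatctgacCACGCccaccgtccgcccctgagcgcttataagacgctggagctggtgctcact
Pgam1 was at 1060 CPM in UT 2, 731.7 in UT 4 and 1132 in UT 10, against 294.9 to 440.0 in the other 8. Of the 16 apart genes of the list 15 had a window, and 12 of them (80.0%) held ACGTG or GCGTG, against 38.6% of all windows. ACGTG alone was in 46.7%, against 16.6%. The windows of Pfkl, Gapdh, Ldha, Slc16a3 and Ankrd37 lay wholly inside the gene as placed by GENCODE, and some other windows lay partly inside theirs. Such matches describe letters and not binding. The shares belong to the listed genes and were not tested.

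**Figure D4:**
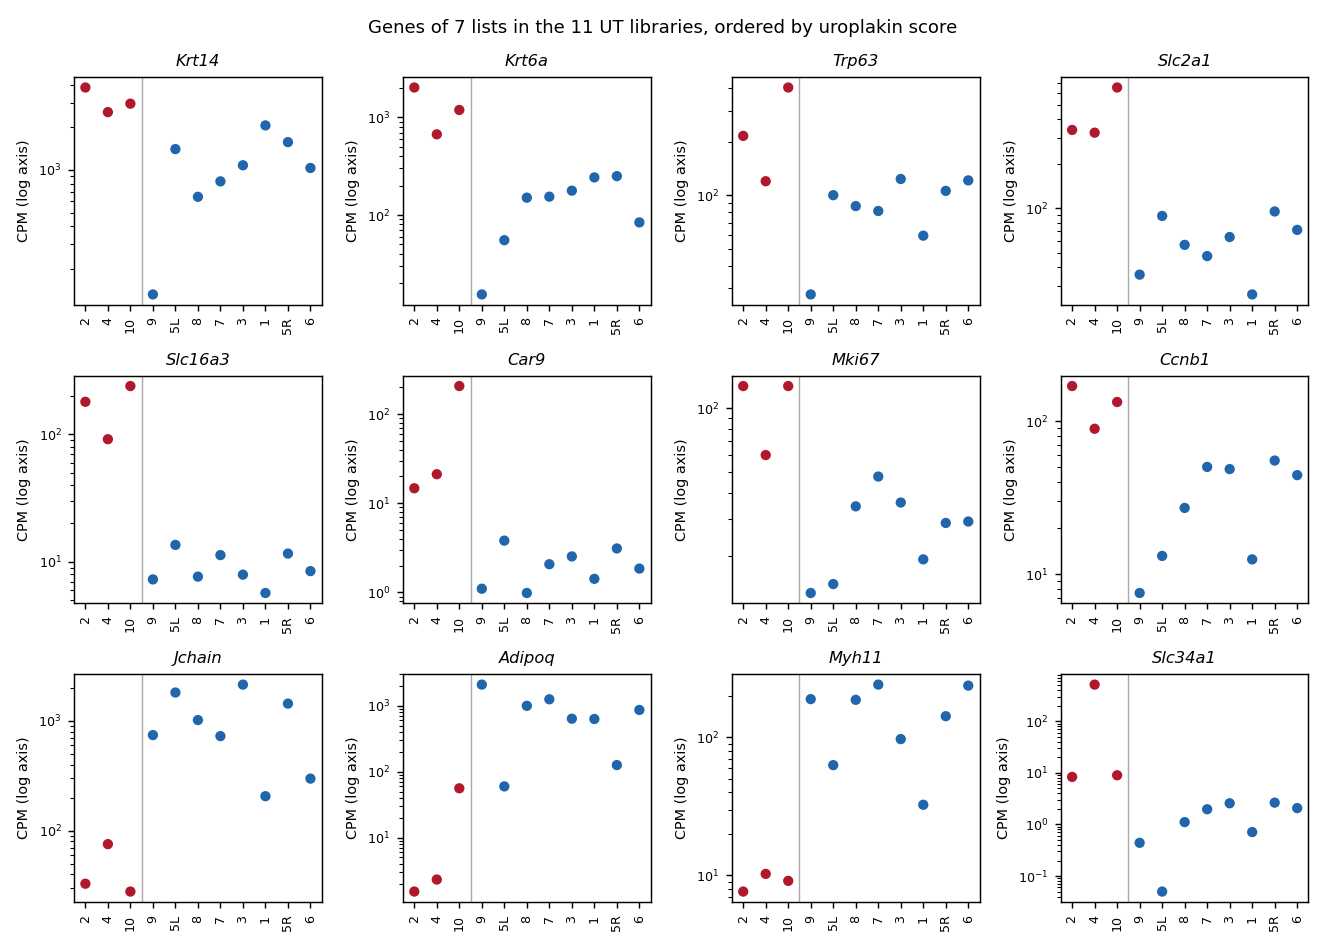
CPM on a log axis of 12 genes in the 11 UT, ordered by uroplakin score, with the 3 uroplakin-low cancers in red and the other 8 in blue; a value of 0 is drawn at 0.05 CPM. Slc2a1, Slc16a3 and Car9 separate the colours on the high side and Jchain and Myh11 on the low side, whereas Trp63 overlaps and Slc34a1 is high mainly in UT 4.

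Spp1 and Ppbp, both secreted, had the largest single differences on the high side with all 3 members counted. For Spp1 this place rested on UT 4. Spp1 (chromosome 5, 104435118 to 104441050, plus strand), the secreted phosphoprotein osteopontin, was at 2005 CPM in UT 2, 21340 in UT 4 and 1344 in UT 10, against 23.5 to 946 with a median of 165, a difference of 4.42. Ppbp, a platelet chemokine, was at 664, 199.6 and 298 CPM, against 2.13 to 110.5, a difference of 3.89. In both genes 1 cancer exceeded the other 2 members by more than 2-fold, and no member overlapped with the other 8. Mmp13, a collagenase, was at 104, 18.1 and 16.9 CPM, against 1.03 to 11.1. Inhba, a subunit of activin, was at 56.2, 17.2 and 35.8 CPM, against 2.45 to 8.14. The collagenase and the activin subunit were both highest in UT 2. Of 12 genes of the EGFR family 10 had a higher mean, 1 was apart and higher and 1 apart and lower, with a median difference of 0.93. The mean of 1 of the 12 in the other cancers was under 1 CPM. That gene passed the filter through the uroplakin-low cancers and had to be higher. The list score was 4.75 to 5.51 in the 3 cancers and 3.81 to 4.56 in the others, and the number apart and higher was 4 without UT 4, 3 without UT 2 or UT 5L and 0 with the 2 or the 4 lowest libraries as members, where the median was 0.37 and 0.41. Nrg1, a ligand of the ERBB receptors, was at 29.8, 12.5 and 47.6 CPM, against 1.69 to 11.1, and Nrg4, another ligand, was at 5.26, 7.27 and 6.88 CPM, against 7.66 to 159, and was not apart with TMM or RLE scaling. Vim, the mesenchymal intermediate filament, was not among the apart genes, at 90.8 to 153 CPM against 81.8 to 322, and the median of 19 genes of epithelial-mesenchymal transition was 0.22, or 0.12 with the 2 lowest libraries as members.

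B and plasma cell genes were lower in the uroplakin-low cancers throughout. All 7 genes past the filter were apart and lower, among them Ms4a1, Cd79a, Cd79b, Jchain, Mzb1 and Blk, with a median difference of -3.32. Jchain (chromosome 5, 88519809 to 88527891, minus strand), the joining chain of secreted IgA and IgM, was at 32.9 CPM in UT 2, 75.5 in UT 4 and 27.9 in UT 10, against 206 to 2140 with a median of 880, a difference of -4.17. Cd79a, part of the B cell receptor, was at 0.648, 1.19 and 4.10 CPM, against 7.51 to 210. The list score was 2.63, 3.01 and 3.02, against 3.79 in UT 1 and 5.74 to 7.08 in the remaining 7. The 7 genes were apart whichever single library was left out, but 4 were with the 2 lowest libraries as members and 0 with the 4 lowest. The mean of 2 of the 7, Blk among them, in the uroplakin-low cancers was under 1 CPM, so these passed the filter through the other cancers and had to be lower.

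T cell genes were lower too, with smaller differences. Of 19 genes past the filter 6 were apart and lower, among them Cd3d, Cd2, Zap70, Ctla4 and Icos, and the median difference was -1.004. Cd3d, a chain of the T cell receptor complex, was at 1.08 CPM in UT 2, 0.636 in UT 4 and under the 3-count limit of 0.198 in UT 10, against 4.35 to 36.8. Cd2, an adhesion receptor of T cells, was at 1.37, 1.35 and 0.661 CPM, against 7.75 to 46.8. Of the 19 genes 4, with Cd3d, Zap70 and Ctla4 of the 6 apart among them, had a mean under 1 CPM in the uroplakin-low cancers and passed the filter through the other cancers, so that they had to be lower. The list score was 2.97, 2.47 and 2.21, against 3.16 to 4.63, and 15 genes were apart without UT 2, 10 without UT 1 and 0 with the 2 or the 4 lowest libraries as members. Ptprc, which marks all leukocytes, was at 49.2, 22.5 and 18.5 CPM and overlapped with the range of 37.5 to 265. Of 11 mast cell and eosinophil genes 4 were apart and lower (Cpa3, Tpsb2, Fcer1a and Prg2), 2 were so without UT 1 or without UT 9 and 0 with the 2 or the 4 lowest as members, and 6 of the 11, with Cpa3, Fcer1a and Prg2 of the 4 apart among them, passed the filter through the other cancers and had to be lower. Of 15 antigen presentation genes 3 were apart and lower (H2-Aa, H2-Eb1 and Cd74), 6 were so without UT 2 or without UT 3 and 0 with the 2 or the 4 lowest libraries as members. Cd74, the invariant chain of MHC class II, was at 839 CPM in UT 2, 525 in UT 4 and 108 in UT 10, against 912 to 2996.

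The scores of macrophage, neutrophil, and TNF and NF-kB genes overlapped between the sets. Of 17 macrophage genes Arg1 was apart and higher, and of 20 TNF and NF-kB genes Ltb was apart and lower. Neither of these 2 lists held an apart gene with the 2 or the 4 lowest libraries as members. The macrophage score was 5.59 to 6.87 in the 3 cancers and 5.50 to 6.70 in the others, and the neutrophil score 3.48 to 5.57 against 3.54 to 4.35. Retnlg, a resistin-like gene of neutrophils, was apart and lower at 31.4, 4.37 and 7.34 CPM, against 51.7 to 549, whereas Padi4, an enzyme that modifies histones, was apart and higher at 56.7, 58.7 and 144 CPM, against 17.2 to 56.3, but not with TMM scaling or without UT 5R, UT 9 or UT 10. Tnf, the inflammatory cytokine, was at 8.86, 3.10 and 3.50 CPM, against 1.40 to 4.11. Il1b, another such cytokine, was at 99.5 CPM in UT 2 but 7.31 and 14.0 in UT 4 and UT 10, against 9.05 to 33.6. Il6 was at 1.44, 2.54 and 3.90 CPM, against 1.03 to 5.34. All of these cytokines overlapped. None of the 35 interferon response genes was apart, although 34 had a higher mean, with a median difference of 0.83. That score was 8.10 in UT 2, 6.57 in UT 4 and 5.22 in UT 10, against 4.96 to 6.68, so it was UT 2 that exceeded the others, and 11 genes were apart and higher without UT 10, or with the 2 lowest libraries as members.

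Genes of fat cells were lower in the uroplakin-low cancers. All 14 adipocyte genes had a lower mean, 4 were apart and lower (Adipoq, Cfd, Cidec and Pnpla2) and the median difference was -3.55. The mean of 2 of the 14 in the uroplakin-low cancers was under 1 CPM, so these passed the filter through the other cancers and had to be lower. Adipoq (chromosome 16, 23146536 to 23158028, plus strand), the fat cell hormone adiponectin, was at 1.51 CPM in UT 2, 2.304 in UT 4 and 56.0 in UT 10, against 59.9 to 2105 with a median of 753, a difference of -5.42. Cfd, the complement factor secreted by fat, was at 23.1, 29.3 and 735 CPM, against 762 to 25040. UT 10 lay just below UT 5L in both genes, and 11 adipocyte genes were apart without UT 10, 8 without UT 5L, 11 with the 2 lowest libraries as members and 0 with the 4 lowest, where the median was -1.85. Cyp2e1, a cytochrome P450 that oxidizes small molecules and nitrosamines, was at 9.08, 154 and 199 CPM, against 597 to 8662 with a median of 3269, a difference of -5.16. Lpl, the lipase that releases fatty acids from lipoproteins, was at 7.20, 75.9 and 83.3 CPM, against 211 to 4309. In U, Adipoq ran from 2737 to 4128 CPM above every cancer, and Cyp2e1 ran from 7173 to 10320, which overlapped with the highest cancers. Thrsp, Apod and Mrap were also among the 12 largest differences on the low side. The remaining ones included Mup2, Mup10 and Gm2083, near-identical copies whose separate counts are uncertain.

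Smooth muscle genes followed the same direction. Of 15 genes 13 had a lower mean and 4 were apart and lower (Myh11, Cnn1, Des and Hspb6), with a median difference of -1.19. Of the 13, 2 passed the filter through the other cancers and had to be lower. Myh11 (chromosome 16, 14194535 to 14291372, minus strand), the myosin of smooth muscle, was at 7.63, 10.2 and 9.12 CPM (mean 9.003 ± 1.312, SD, n = 3), against 32.5 to 241 with a median of 165 (mean 149 ± 78.5, SD, n = 8), a difference of -3.32. The score was 4.37, 4.70 and 4.24, against 4.80 to 6.95, and 7 genes were apart without UT 4, 9 without UT 5L, 8 with mouse 5 averaged, 1 with the 2 lowest libraries as members and 0 with the 4 lowest. Dcn and Lum, small proteoglycans of connective tissue, were apart and lower among 22 collagen and matrix genes, whose median was 0.41, or 0.20 without UT 2. Without UT 4, 4 of the 22 were apart and lower and 4 apart and higher, and with the 2 or the 4 lowest libraries as members none was apart. Dcn was at 58.3, 239 and 198 CPM, against 907 to 2427. Endothelial genes gave a median of -0.66, with Vwf, the clotting factor of vessel walls, apart and lower of 14, and 4 were so without UT 4. With the 2 lowest libraries as members 0 were apart and the median was -0.38, and with the 4 lowest 0 were and it was -0.06. The scores of basal, cell cycle, glycolysis and hypoxia and EGFR family genes did not overlap on the high side, and those of B and plasma cell, T cell, mast cell and eosinophil and smooth muscle genes did not overlap on the low side. The general epithelial, squamous and adipocyte scores overlapped. The share of each tissue in the samples was not measured, and its part in the differences was not tested.

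**Figure D5:**
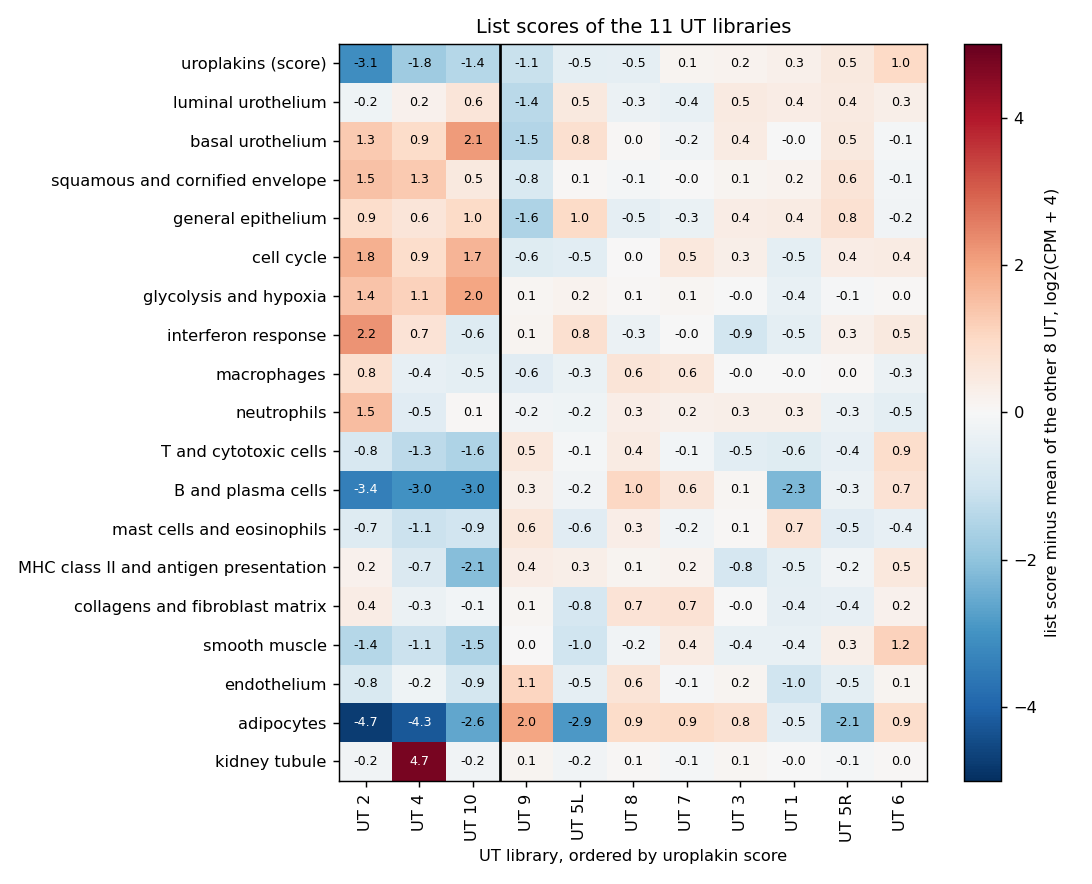
List scores of 19 gene lists in the 11 UT, each minus the mean of the other 8 UT on the log2(CPM + 4) scale, ordered by uroplakin score; red is higher, blue is lower, and the black line separates the 3 uroplakin-low cancers at the left. Cell cycle and glycolysis and hypoxia scores are positive and B and plasma cell scores negative in all 3, whereas interferon response is high in UT 2 and kidney tubule in UT 4.

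The 3 cancers also differed among themselves. UT 2 had the lowest uroplakin score, the highest interferon response score and the lowest adipocyte score of the 11 UT. UT 4 carried kidney tubule genes. Its kidney tubule score was 7.35, whereas no other UT was above 2.74. Umod, the uromodulin of the thick ascending limb, was at 931 CPM in UT 4 and at most 3.13 CPM in the other UT. Slc34a1, the phosphate transporter of the proximal tubule, was at 514 CPM in UT 4, 8.35 in UT 2 and 8.99 in UT 10, against 0 to 2.65 CPM. The median difference of the kidney list was 1.46 with UT 4 and -0.04 without it. Of its 13 genes 10 had a mean under 1 CPM in the other cancers, so they passed the filter through the uroplakin-low cancers and had to be higher. Spp1 and Ndrg1, which were highest in UT 4, are also expressed in kidney, and the part of kidney tissue in them was not tested. Without UT 4, 37 cell cycle genes and 21 glycolysis and hypoxia genes were apart. UT 10 had the highest Krt5, Trp63, Fgfr3 and Car9 of all 11 cancers. It also had the lowest score of antigen presentation genes, at 5.48 against 6.79 to 8.16 in the other 8.

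Technical measures of the sets are given without a test, since CPM, and with it the choice of members, rests on the total count. The total count was 13.86 ± 1.27 M counts (SD, n = 3) in the uroplakin-low cancers and 13.71 ± 2.19 M counts (SD, n = 8) in the others. The 10 most abundant genes took 6.81% ± 1.85 of the counts (SD, n = 3) against 9.07% ± 2.67 (SD, n = 8), and both measures overlapped between the sets.

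The bladders and the opposite ureters of the same mice were not used to choose the cancers and could be tested. Bladders of the 3 mice with a uroplakin-low cancer scored 6.03 ± 0.584 (SD, n = 3) and those of the other 7 mice 6.21 ± 0.877 (SD, n = 7). The difference of -0.18 was within the spread (exact two-sided permutation test, p = 0.75, smallest possible 0.0167), and its sign turned without the bladder of mouse 4 or of mouse 9. The bladder of mouse 6 carries a T in its library name, as the cancer sides do, where the other treated bladders carry an N, although its labels say bladder only. Without it the difference was -0.038 (exact two-sided permutation test, p = 0.976). Of 17427 genes tested in these bladders, 0 (0.0%) passed an FDR under 0.1 with a 2-fold change in edgeR's quasi-likelihood test, with 22 at an unadjusted p under 0.05, and DESeq2 also gave 0, with 66 at an unadjusted p under 0.05. The bladders of mice 1, 3 and 4 had totals of 3557697 to 7820510 counts with 21.54% to 29.52% of them in 10 genes, against 5.17% to 12.18% in the others, and without libraries under 10 M counts edgeR gave 0 of 15762 genes, as it gave 0 without the bladder of mouse 6. On simulated counts with the depths of these bladders the test missed nearly all changes of 2-fold and 4-fold, so a count of 0 does not show that the bladders did not differ. In UN, mice 2 and 4 scored 5.25 ± 3.91 (SD, n = 2) against 6.55 ± 0.883 (SD, n = 5) in the other mice (exact two-sided permutation test, p = 0.571). The design cannot reach p under 0.05, its smallest p being 0.0952. UN 2 at 2.49 and UN 4 at 8.02 were the lowest and the highest of the 7 UN. Of 15909 genes in UN, 0 (0.0%) passed in edgeR, with 319 at an unadjusted p under 0.05, whereas DESeq2 called 9.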

How the data were processed

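The authors extracted RNA with the miRNeasy Mini Kit, prepared libraries with SMARTerHT and Nextera XT kits, and sequenced them by WTS. The values deposited by the authors are expected counts on GRCm38/mm10, 1 row per gene symbol, with no scaling between libraries; 21.09% of the values above 0 are fractional. The submitters' processing notes list TopHat2 2.1.1 and Cuffdiff 2.2.1. Names linked every column to a library, and 0 columns had no sample. Strand use in counting is not given in the sources used here, so antisense partners cannot be told apart. The separate counts of near-identical copies are uncertain as well.

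Total counts of the 11 UT ran from 9724542 to 16735797, and 3 counts were taken as the limit of detection. No pair of UT agreed within sampling noise (smallest chi-square per degree of freedom 50.55). CPM was the count per 1000000 of the column total, and differences were taken between means of log2(CPM + 4), a scale that understates changes of low genes. The uroplakin-low and other UT were compared without a test, and 14889 of 24421 genes passed a mean of 1 CPM. The members and the 38 gene lists (745 entries, 738 matched) were chosen with earlier results of these data known. Genes named were the 5 of the score, the 12 largest apart in each direction, up to 4 apart per list (or the 2 most abundant), the 10 most correlated with the score, and 21 markers. Further apart genes of a list named only by symbol, and the values of Cdc20, Pgk1, Pgam1, Ldha, Adm, Ankrd37 and Umod, were chosen after their values were seen.

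For bladder and UN, counts were rounded to whole numbers and the quasi-likelihood test of edgeR 4.0.16 (R 4.3.3) was run (TMM, filterByExpr, Benjamini-Hochberg FDR under 0.1 and 2-fold), with DESeq2 1.42.0 as an alternative. On simulated data the bladder test missed nearly all changes of 2-fold and 4-fold and made some false calls at the largest fold tried. Exact permutation tests were two-sided (Python 3.11.15, numpy 2.4.6, pandas 2.3.3, scipy 1.17.1; plots with matplotlib 3.10.9). The p-values of bladder and UN describe the spread between mice, with 1 library per mouse. Alternatives were TMM and RLE scaling, a pseudocount of 1, the fold fitted by edgeR, no filter or 5 CPM, and the 2 or 4 lowest libraries. Further ones were mouse 5 averaged, libraries under 10 M counts left out, and each library left out in turn. Gene positions came from GENCODE on GRCm38 and the 250 bases before each start from RefSeq (GRCm38.p6), with one start per gene. Some items are not reported here.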

Additional observations from a re-analysis of the deposited data

Results flagged for a closer look

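Among 68 groups of values with 4 to 10 libraries, 8 (11.8%) held a library far from the others by Dixon's criterion. Chance alone meets it in about 1 of 20 independent groups. These groups were not independent, since Krt5 and Krt14 are in the basal list and some groups hold both ureters of a mouse. The shares therefore cannot be compared. In UN, the uroplakin score of UN 2 was 2.492, with the next lowest at 5.829, and this is the opposite ureter of the mouse with the lowest uroplakin cancer. In U, U 2L scored 7.15 and the next 7.782. Among the other 8 UT, UT 9 was low in basal genes (list score 5.033, next 6.335), in Krt5 (log2(CPM + 4) of 6.993, next 8.856) and in Krt14 (7.084, next 9.344). Its general epithelial score of 4.93 was the lowest and its adipocyte score of 10.05 the highest of the 11 UT. UT 1 had a B and plasma cell score of 3.788, with the next at 5.736, and a glycolysis and hypoxia score of 6.587, with the next at 6.891. The Il6 value of UT 6 was the highest of the 8 at 3.223 on the log2(CPM + 4) scale, and the next was 2.664. The 3 uroplakin-low cancers are too few for this criterion.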

How the results depend on the processing

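Genes apart and higher numbered 251. With TMM scaling they numbered 234, with RLE 250, with mouse 5 averaged 295 and with the smaller pseudocount 327, and the same 3 libraries were chosen on TMM-scaled values with a pseudocount of 1. With the 2 lowest libraries there were 104 (22 of them among the 251), with the 4 lowest 7 (2 among the 251), and leaving out each library gave 234 to 616. Genes apart and lower numbered 374; the 2 lowest gave 207 (105 shared), the 4 lowest 40 (17 shared), edgeR's fitted fold 568, and leaving out each library 357 to 884, the highest without UT 4. The median over all genes was -0.035 with TMM and -0.015 with RLE, and one list median changed sign with TMM (p53 targets, 0.025 to -0.028). A pseudocount of 1 moved the medians of uroplakins to -2.747, T cells to -1.941, mast cells and eosinophils to -1.536, skeletal muscle to -0.421, nerve to -0.787 and kidney tubule to 1.911. With edgeR's fitted fold the medians were -5.675 for B and plasma cells, -5.355 for adipocytes, -2.57 for T cells and 2.01 for squamous genes. They were 6.83 for kidney tubule and -0.015 for antigen presentation. Those of basal, cell cycle and glycolysis and hypoxia genes were 1.562, 1.73 and 1.406. Leaving out each library in turn gave medians of 0.648 to 1.399 for squamous genes, -0.512 to 0.195 for IL-1 and IL-6 families, -0.285 to 0.247 for chemokines, 0.171 to 1.527 for interferon response, -1.139 to 0.327 for antigen presentation, -1.483 to -0.896 for T cells, -0.051 to 1.278 for neutrophils, -1.072 to -0.686 for mast cells and eosinophils, -0.408 to -0.030 for matrix metalloproteinases, -0.037 to 2.576 for kidney tubule, 0.434 to 1.183 for urinary tract transport, -0.690 to -0.100 for drug and retinoid metabolism, 1.219 to 1.557 for glycolysis and hypoxia, 0.545 to 1.032 for EGFR family, -0.340 to 0.001 for Wnt, 0.086 to 0.230 for TGF-beta, BMP and Hedgehog and -0.411 to 0.022 for immune checkpoints. In UN, DESeq2 called 9 genes (580 at an unadjusted p under 0.05), and leaving out each library gave 0 to 2 in edgeR, the 2 without UN 4. The bladder score difference ran from -0.405 to 0.152 and turned without bladder 4 (0.152) and bladder 9 (0.015). The difference of the uroplakin score in UN of the same mice ran from -4.056 to 1.467 and turned without UN 2 (1.467); where 1 UN was left in a set it was assumed to vary like the rest. The library total difference ran from -0.471 to 0.797 M counts and turned without UT 5L (-0.411) and UT 10 (-0.471). The causes were not tested. No paired analysis was possible because the sets compared came from different mice. Depth limits Cd3d and similar lymphocyte genes, which had few or no counts in the 3 cancers.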

Other observations

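Other gene lists held few apart genes, and over all genes 1.69% were apart and higher and 2.51% apart and lower, against which single apart genes of a list are not a result about that list. In drug and retinoid metabolism 3 of 28 genes were apart and lower in the uroplakin-low cancers: Cyp2e1, Cyp2f2 and Aldh1a1. The number was 7 without UT 4, 6 without UT 5L, 5 with mouse 5 averaged and 1 with the 4 lowest libraries as members. Cyp2f2, a cytochrome P450 of airway and kidney epithelium, was at 0.720 CPM in UT 2, 17.9 in UT 4 and 90.3 in UT 10, against 110 to 528 CPM in the other 8 UT. Aldh1a1, an enzyme that makes retinoic acid, was at 0.288, 21.9 and 17.8 CPM, against 26.3 to 112. In both genes UT 2 was the lowest, as it was in the uroplakins. Of 24 NRF2 and glutathione genes 2 were apart and lower, Gsta3 (0.792, 33.8 and 19.2 CPM against 41.2 to 218) and Taldo1, an enzyme of the pentose phosphate pathway (199, 260 and 215 CPM against 325 to 715), and 1 was without UT 2 or with the 2 or the 4 lowest libraries as members.

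Secretory defense genes Slpi and Reg3g were apart and lower among 18. Slpi, a protease inhibitor of mucosal fluids, was at 39.5, 54.9 and 27.0 CPM, against 104 to 925, and in U at most 17.8 CPM. Reg3g, an antibacterial lectin, was at 0.576, 48.2 and 106 CPM, against 155 to 2133. Both were thus between U and the other cancers in UT 4 and UT 10. Mmp3, a stromal metalloproteinase, was at 5.76, 15.8 and 13.7 CPM, against 27.9 to 106, opposite in direction to Mmp13. Among chemokines, Cxcl12, Ccl5, Ccl21a and Ccl22 were apart and lower of 25 genes, and Cxcl12, which retains leukocytes in stroma, was at 24.4, 72.1 and 57.6 CPM against 109 to 552. With the 2 or the 4 lowest libraries as members 1 of the secretory defense genes and 1 of the chemokines was apart and lower. With the 2 lowest, 1 secretory defense gene and 2 chemokines were apart and higher. In each of these lists, and in drug and retinoid metabolism, 2 genes had a mean under 1 CPM in the uroplakin-low cancers and had to be lower, Ccl22 among them.

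Muc1, a membrane mucin, was at 278, 194 and 102 CPM, against 9.64 to 189, and Aqp3, a water and glycerol channel of basal urothelium, was at 418, 278 and 375 CPM, against 41.9 to 290. Aqp4, another water channel, was at 53.8, 104 and 694 CPM, against 5.78 to 377. None of these 3 was apart, and UT 10 had the most Aqp4 of the 11 UT. Of 18 p53 target genes Ckap2 was apart and higher and Sesn1 and Trp53inp1 apart and lower, but Ckap2 was not apart with TMM or RLE scaling or without UT 1, UT 9 or UT 10. Neither the Notch list (14 genes past the filter) nor the immediate early list (20 genes) held an apart gene, and without UT 4 they held 1 and 3 that were higher. In the Wnt list 1 of 28 genes, Lef1, was apart and lower (3 without UT 5L, without UT 10 or with mouse 5 averaged; Lef1 itself had a mean under 1 CPM in the uroplakin-low cancers and had to be lower), and in the list of TGF-beta, BMP and Hedgehog 1 of 21, Inhba, was apart and higher.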
